A study of Mus musculus with 21 samples.

Results

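Macrophages and neutrophils are the phagocytes of inflamed tissue, and 35 genes that are typical of them were followed here in gastric tissue of mouse tumor models. The 35 genes were given as a list by symbol, and each was found among the 18193 genes that have a probe set of their own on the Affymetrix Mouse Genome 430 2.0 array. RNA from the glandular stomach of 21 C57BL/6 mice, labelled female and aged 18 to 65 weeks, was hybridised to 1 array per mouse. Of the 6 genotypes, 3 carry C2mE, namely K19-C2mE with 3 mice, K19-Nog/C2mE with 3 and K19-Wnt1/C2mE with 5. The others were wild type with 3 mice, K19-Nog with 2 and K19-Wnt1 with 5. Expression of all transgenes was under the keratin 19 (K19) promoter, which is active in the gastric epithelium. C2mE stands for the pair of enzymes COX-2 and mPGES-1, which make prostaglandin E2, while Wnt1 is a ligand that activates Wnt signaling and Nog encodes noggin, an inhibitor of bone morphogenetic proteins. All genotypes share the strain, and the wild-type mice carry no transgene. The values are log2 of the RMA signal, a probe set summary on which a difference of 1 is a doubling, and a gene is represented by its brightest probe set.

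Tissue macrophages depend on the growth factor receptor Csf1r, and in the mouse most of them carry F4/80, the product of Adgre1. They take up particles through Fc receptors, scavenger receptors and lectins, and degrade them in lysosomes with proteases such as cathepsins and legumain. Neutrophils mature under the cytokine G-CSF, leave the blood through Cxcr2, and carry granules with myeloperoxidase. Several of the 35 genes are shared with other cells: Ptprc, Laptm5, Cd53 and Cd52 are expressed by most leukocytes, Irf8 also by B cells and dendritic cells, and Arg1, Gpnmb, Lgmn and Cd14 can also be expressed by cells other than leukocytes. In whole tissue, fewer cells of a type and less RNA per cell cannot be told apart.

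The arrays were alike in scale, with median signals between 65.963 and 68.764. Y-linked transcripts were detected in 9 of the 21 arrays, against the female label: in 4 of 5 K19-Wnt1, 2 of 3 wild-type, 2 of 3 K19-C2mE and 1 of 5 K19-Wnt1/C2mE arrays, and in none of the K19-Nog and K19-Nog/C2mE arrays. Xist, a transcript of female cells, was 6.18 to 7.43 on the log2 scale in these 9 arrays and 11.13 to 12.99 in the others. By both measures the 9 arrays look male, against the label, and they are spread unevenly over the genotypes. Markers of squamous epithelium, which lines the forestomach, also stood apart. Their summed signal over 15 genes was 1357 to 7049.6 in wild type, 17346 to 71139 in K19-C2mE, 4624 to 27547 in K19-Wnt1/C2mE and 3422 to 3993 in K19-Nog/C2mE. Of 10 markers of the glandular stomach, 1 was higher and 5 were lower with C2mE. Their summed signal was 233710 to 235430 in wild type and 140930 to 189770 in K19-C2mE. It was 121550 to 166130 in K19-Wnt1/C2mE and 133840 to 152500 in K19-Nog/C2mE. The median log2 signal of these markers was 14.57 to 14.645 in wild type and 8.13 in K19-Nog/C2mE array 3, the lowest array.

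Many of the genes rose with C2mE, and none passed the test with Wnt1 or Nog alone. In the comparison of C2mE with no C2mE averaged over the 3 backgrounds (wild-type, Wnt1 and Nog), 22 of the 35 genes were higher and 2 were lower at an adjusted p below 0.05, against 27.4% of all genes higher and 26.3% lower. The median change of the 35 genes was 0.52 on the log2 scale, beside -0.01 for all 18193 genes. The rise was unequal. Cd14, Arg1 and Irf8 changed the most, the 5 leukocyte membrane genes were all higher, and Csf1r and Adgre1, which define tissue macrophages, had changes close to 0. Tests were moderated t statistics of limma over all 21 arrays, with Benjamini-Hochberg adjustment over all genes. Without the 9 arrays with Y-linked signal, which leaves 1 wild-type, 1 K19-Wnt1 and 1 K19-C2mE array that are assumed to vary like the other genotypes, the count fell to 5 higher and 1 lower, whereas a fit that held the Y-linked level as a covariate gave 22 higher and 1 lower. Of the 24 calls, 6 (Csf3r, Itgax, Mpeg1, Mpo, Fcgr3 and Tyrobp) were lost without K19-Nog array 1, with adjusted p between 0.0676 and 0.194.

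**Figure D1:**
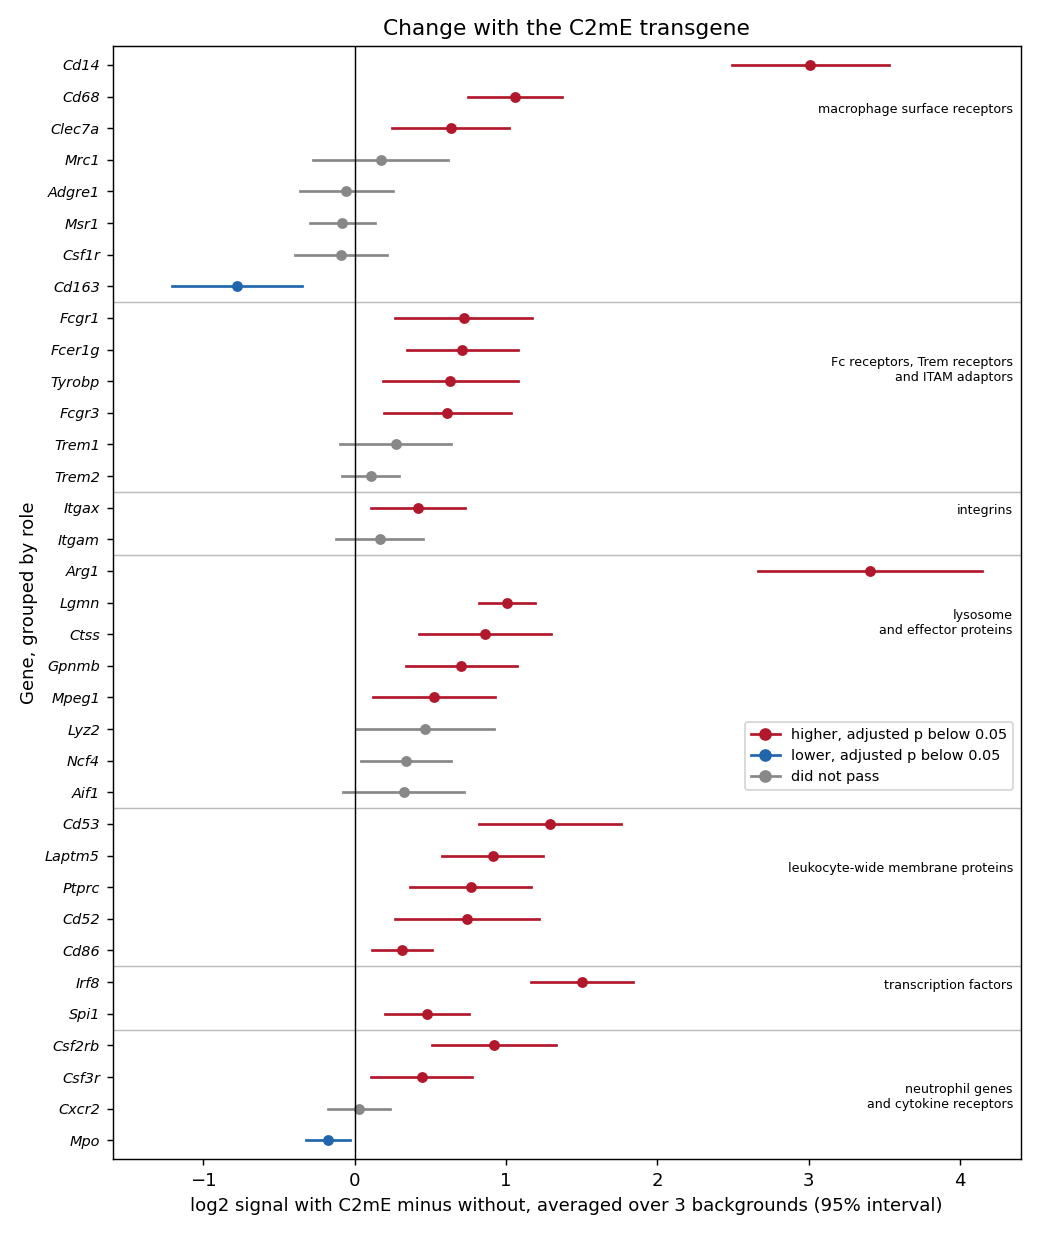
Change of each of the 35 genes with C2mE, averaged over 3 backgrounds. The x axis is the difference in log2 signal, points are estimates from the limma fit, lines are 95% intervals, and rows are grouped by role. Arg1 (3.40) and Cd14 (3.01) lie far to the right of the other genes, 11 genes are grey because they did not pass the test, and Cd163 and Mpo are the 2 genes called lower among 5 estimates below 0.

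Each tumor model was also set against wild type alone. In K19-C2mE, 8 of the 35 genes were higher and none was lower, against 15.4% of all genes higher and 13.7% lower. In K19-Wnt1/C2mE 12 were higher and none was lower, beside 21.2% and 22.5% of all genes. In K19-Nog/C2mE 14 were higher and 1 was lower, beside 16.0% and 16.7%. The last count rested on K19-Nog/C2mE array 3, and without it 8 genes were higher and none was lower. The shares of the list called higher were 22.9%, 34.3% and 40.0%, so that the first lies nearest to its background. Cd14, Lgmn, Irf8, Cd68, Laptm5 and Cd53 were higher in all 3 models, 3 genes in 2 models, 10 genes in 1 model, and 16 genes in none. The share of all genes higher in several models at once was not counted. Whether these numbers are unusual is thus not known, since the models share C2mE and the same wild-type arrays. The calls of Laptm5 rest on the probe set used, since none of its other probe sets was called higher in any model. Without K19-Nog/C2mE array 3 the difference of Cd53 in that model was 0.66 in place of 1.18 and did not pass (adjusted p = 0.204), and its call in K19-C2mE was lost without K19-C2mE array 2 or 3 or wild-type array 1 or 3. The median change of the 35 genes was 0.46 in K19-C2mE, 0.45 in K19-Wnt1/C2mE and 0.74 in K19-Nog/C2mE, where the median of all genes was between -0.04 and -0.02. Single arrays set the order of these medians, since K19-Nog/C2mE had 0.37 without array 3, and K19-C2mE had 0.77 without array 1 and 0.28 without array 3.

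**Figure D2:**
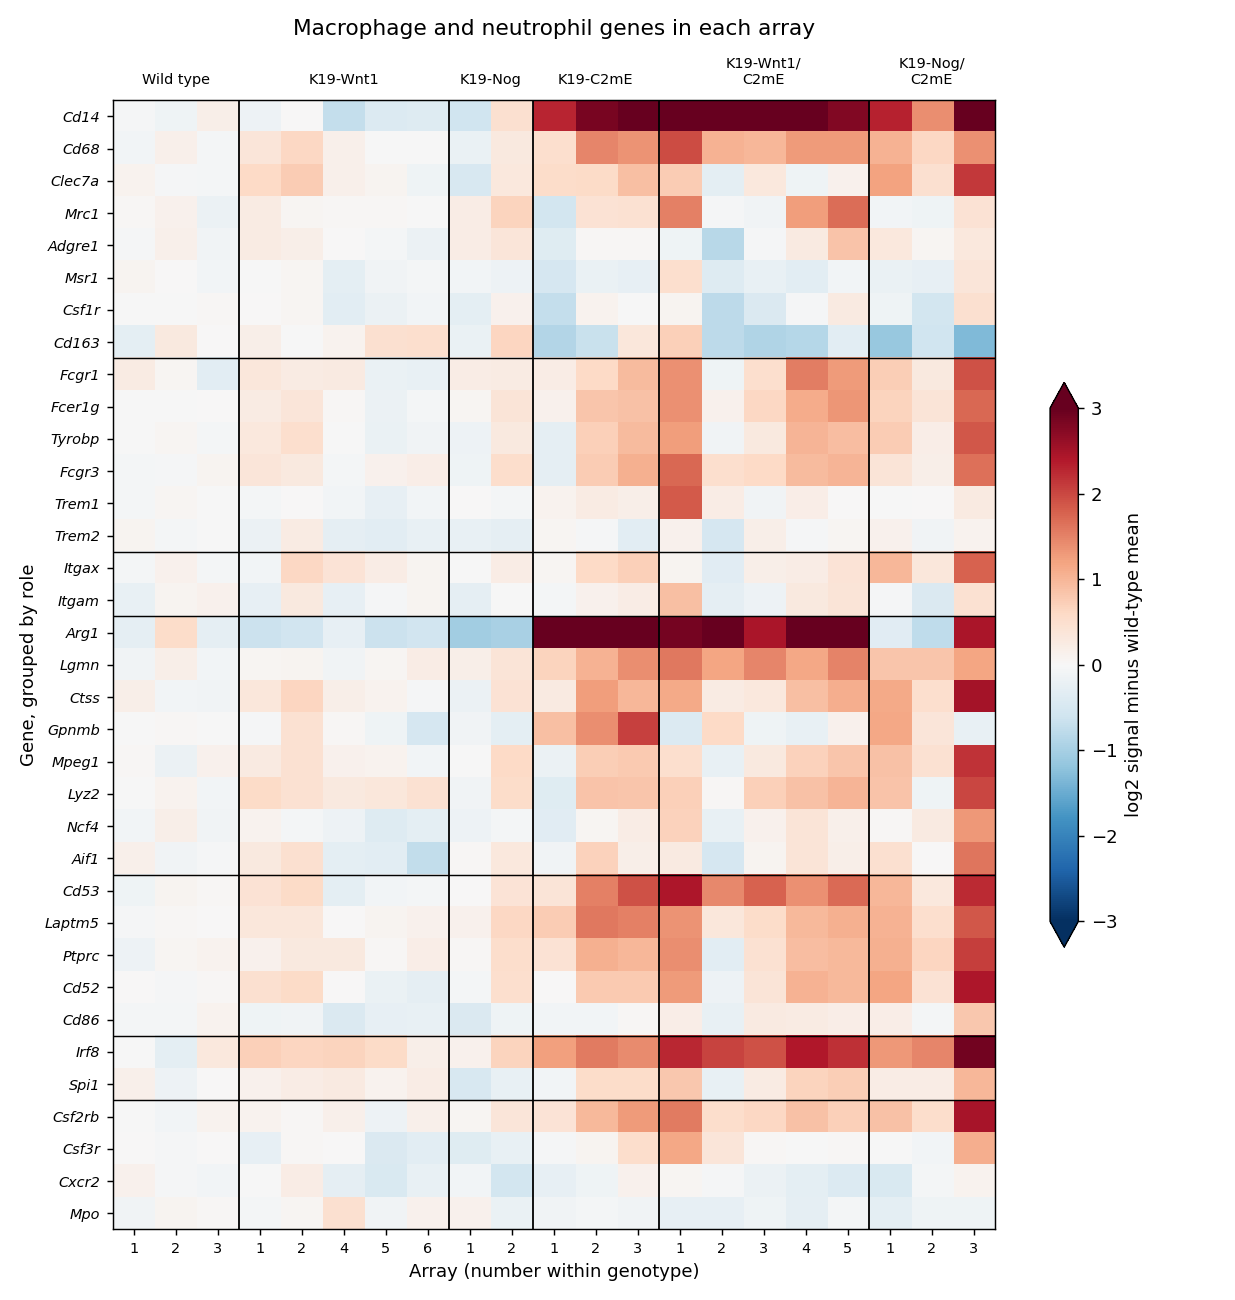
Heat map of the 35 genes (rows, grouped by role) in the 21 arrays (columns, grouped by genotype). Color is the log2 signal minus the wild-type mean, limited to 3 in either direction. Cd14 and Irf8 are red in every C2mE array, Arg1 is red in 9 of the 11 C2mE arrays, and K19-Nog/C2mE array 3 is the reddest column while K19-C2mE array 1 and K19-Wnt1/C2mE array 2 hold both red and blue rows.

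Both transcription factors of the list were higher with C2mE. Irf8, an interferon regulatory factor needed for monocytes and dendritic cells, had log2 signals of 6.41, 6.14 and 6.75 in wild type and of 7.67, 8.002 and 7.86 in K19-C2mE. It measured 8.71, 8.46, 8.35, 8.84 and 8.63 in K19-Wnt1/C2mE, with 7.74, 7.91 and 9.33 in K19-Nog/C2mE. The 10 arrays without C2mE ended at 7.14 and the 11 arrays with it began at 7.67, so the groups did not overlap. The averaged change was 1.504 ± 0.161 (SE), or 2.84-fold, with an adjusted p of 1.7e-07. A further Irf8 probe set gave 1.30. Spi1, which encodes PU.1, the factor that directs myeloid development, ranged from 5.52 to 6.28 (median 6.13) without C2mE and from 5.80 to 7.01 (median 6.56) with it. These ranges overlapped, and the averaged change was 0.48 ± 0.13 with an adjusted p of 0.00486. Spi1 passed the test in none of the 3 models singly, with differences from wild type of 0.34 to 0.49, but it did in K19-Wnt1/C2mE without array 2 (0.61, adjusted p = 0.0119).

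PU.1 binds a purine-rich element, and its core letters GAGGAA were searched on both strands in the 250 bases before the annotated start of transcription. RefSeq promoters (GRCm38.p6) were at hand for 24 of the 35 genes. The letters were present for 16 of these 24 genes, in 18 of their 29 start sites (62.1%), against 7639 of 32851 start sites of all genes (23.3%). These 16 genes include Mpo, which was called lower with C2mE in the averaged comparison. They also include Aif1, Cxcr2, Itgam, Mrc1, Trem1 and Trem2, which did not pass there. Whether the letters go with the changes was not tested. Of the 6 genes that were higher in every C2mE model, 5 had a promoter at hand and 3 of these hold the PU.1 core. Their sequences are printed from 5′ to 3′ in the direction of the gene with the match in capitals. The windows are chr3:106790150-106790399 on the minus strand for Cd53, chr11:69666171-69666420 on the minus strand for Cd68 and chr4:130913066-130913315 on the plus strand for Laptm5.
Cd53: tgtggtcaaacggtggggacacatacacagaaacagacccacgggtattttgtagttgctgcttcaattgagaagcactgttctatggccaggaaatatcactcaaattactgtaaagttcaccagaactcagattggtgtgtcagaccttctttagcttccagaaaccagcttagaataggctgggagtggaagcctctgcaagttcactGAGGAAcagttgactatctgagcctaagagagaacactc
Cd68: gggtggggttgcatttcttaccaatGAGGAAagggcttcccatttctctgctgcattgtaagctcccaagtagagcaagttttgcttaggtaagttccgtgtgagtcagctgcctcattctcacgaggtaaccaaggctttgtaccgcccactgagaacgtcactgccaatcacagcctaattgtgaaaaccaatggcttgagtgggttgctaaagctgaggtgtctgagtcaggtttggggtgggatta
Laptm5: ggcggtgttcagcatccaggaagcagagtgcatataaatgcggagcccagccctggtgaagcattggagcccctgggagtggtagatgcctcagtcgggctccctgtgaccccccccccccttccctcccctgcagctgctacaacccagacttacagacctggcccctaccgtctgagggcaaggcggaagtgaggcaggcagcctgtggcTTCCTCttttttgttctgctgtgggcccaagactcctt
The match starts 39 bases before the start site in Cd53 and 225 in Cd68, and 38 in Laptm5, where it lies on the reverse strand. Lgmn and Irf8 have no such letters in either of their annotated windows. The first window of Irf8, the factor with the larger change, chr8:120736108-120736357 on the plus strand, is shown for contrast.
Irf8: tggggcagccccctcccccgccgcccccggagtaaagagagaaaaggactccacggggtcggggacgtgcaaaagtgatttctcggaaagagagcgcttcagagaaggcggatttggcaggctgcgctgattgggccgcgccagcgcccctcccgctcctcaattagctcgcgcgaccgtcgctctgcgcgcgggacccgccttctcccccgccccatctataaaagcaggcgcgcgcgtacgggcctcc
A match of letters is a description of the sequence, and binding was not measured.

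Among the 8 macrophage surface receptors, 3 were higher with C2mE and 1 was lower, beside 27.4% and 26.3% of all genes. The count of 3 lies near this share. The same shares of all genes stand beside the counts given below for the other roles and lists in the averaged comparison. Cd14, the co-receptor through which bacterial lipopolysaccharide reaches Tlr4, measured 7.52, 7.41 and 7.71 in wild type. It measured 9.84, 10.39 and 10.63 in K19-C2mE, 11.32, 11.30, 10.79, 10.71 and 10.34 in K19-Wnt1/C2mE, with 9.86, 8.93 and 11.53 in K19-Nog/C2mE. The highest array without C2mE (K19-Nog array 2, 8.03) lay below the lowest with it (8.93). Its averaged change was 3.01 ± 0.25, which is 8.07-fold (adjusted p = 4.43e-09), and it was 6.67-fold higher than wild type in K19-C2mE, 10.2-fold in K19-Wnt1/C2mE and 5.90-fold in K19-Nog/C2mE. The last value was 2.56 on the log2 scale, and 1.85 without array 3. Cd68, a glycoprotein of macrophage lysosomes, was 6.33, 6.56 and 6.36 in wild type. It was 6.92, 7.89 and 7.77 in K19-C2mE, 8.37, 7.46, 7.40, 7.70 and 7.70 in K19-Wnt1/C2mE, with 7.46, 7.04 and 7.79 in K19-Nog/C2mE. Every C2mE array was above every wild-type array, but K19-Wnt1 array 2 (7.04) was above K19-C2mE array 1. The averaged change of Cd68 was 1.06 ± 0.15, a 2.08-fold rise (adjusted p = 5.82e-06).

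Clec7a, the dectin-1 receptor for fungal glucans, ranged from 6.44 to 7.69 without C2mE and from 6.62 to 9.06 with it. The averaged change was 0.63 ± 0.19 (adjusted p = 0.007). It was higher than wild type by 1.28 in K19-Nog/C2mE (adjusted p = 0.00548), while its difference was 0.15 in K19-Wnt1/C2mE (adjusted p = 0.706) and 0.68 in K19-C2mE (adjusted p = 0.131). Without array 3 the K19-Nog/C2mE difference was 0.85 (adjusted p = 0.0446). Cd163, the scavenger receptor for hemoglobin and a marker of resident macrophages, went the other way. It measured 5.85, 6.43 and 6.15 in wild type, 5.27, 5.47 and 6.49 in K19-C2mE, 6.85, 5.36, 5.23, 5.29 and 5.83 in K19-Wnt1/C2mE, with 4.996, 5.55 and 4.82 in K19-Nog/C2mE. All 3 K19-Nog/C2mE arrays were below all wild-type arrays, whereas K19-Wnt1/C2mE array 1 was the highest of the 21. The averaged change was -0.78 ± 0.21, a level 1.72-fold lower (adjusted p = 0.00342), and among the single models K19-Nog/C2mE passed (-1.02, adjusted p = 0.0381). That call was lost without array 1 or 3 of this genotype or wild-type array 2 or 3 (adjusted p between 0.083 and 0.131) and with the Y-linked covariate (0.0922), while K19-Wnt1/C2mE passed without its array 1 (-0.72, adjusted p = 0.0383). With the squamous median of each array as a covariate the averaged value was -0.54 (adjusted p = 0.316). The squamous median did not overlap between K19-C2mE and wild type. This fit therefore cannot tell it apart from the K19-C2mE genotype, and no conclusion is drawn from the lost call.

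The other surface receptors did not pass in the averaged comparison. Csf1r, the receptor for the macrophage growth factor, ranged from 9.74 to 10.18 without C2mE and from 9.25 to 10.54 with it, a difference of -0.09 with a 95% interval of -0.40 to 0.21. Adgre1 ranged from 7.46 to 7.998 and from 6.803 to 8.498, a difference of -0.06 with an interval of -0.36 to 0.25. Msr1, a scavenger receptor, differed by -0.08, with an interval of -0.30 to 0.14. Mrc1, the mannose receptor of resident and alternatively activated macrophages, differed by 0.17 overall but was higher than wild type in K19-Wnt1/C2mE (0.85 ± 0.34, adjusted p = 0.0481), a call that was lost without array 1, 4 or 5 of this genotype or any 1 wild-type array (adjusted p between 0.0788 and 0.142). There arrays 1, 4 and 5 measured 9.02, 8.75 and 9.18, and arrays 2 and 3 measured 7.47 and 7.39, inside the range of the arrays without C2mE. The upper ends of the intervals of Csf1r, Adgre1 and Msr1 (0.21, 0.25 and 0.14) lie below the lower end for Cd68 (0.75). Both other probe sets of Csf1r were also near 0 (-0.01 and 0.07). However, 1 of the 3 other Msr1 probe sets differed by 0.49 and passed (adjusted p = 0.00263 over all probe sets). It also passed in K19-Wnt1/C2mE against wild type (0.65, adjusted p = 0.0124). The others gave 0.02 and -0.06, so the result for Msr1 depends on the probe set.

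**Figure D3:**
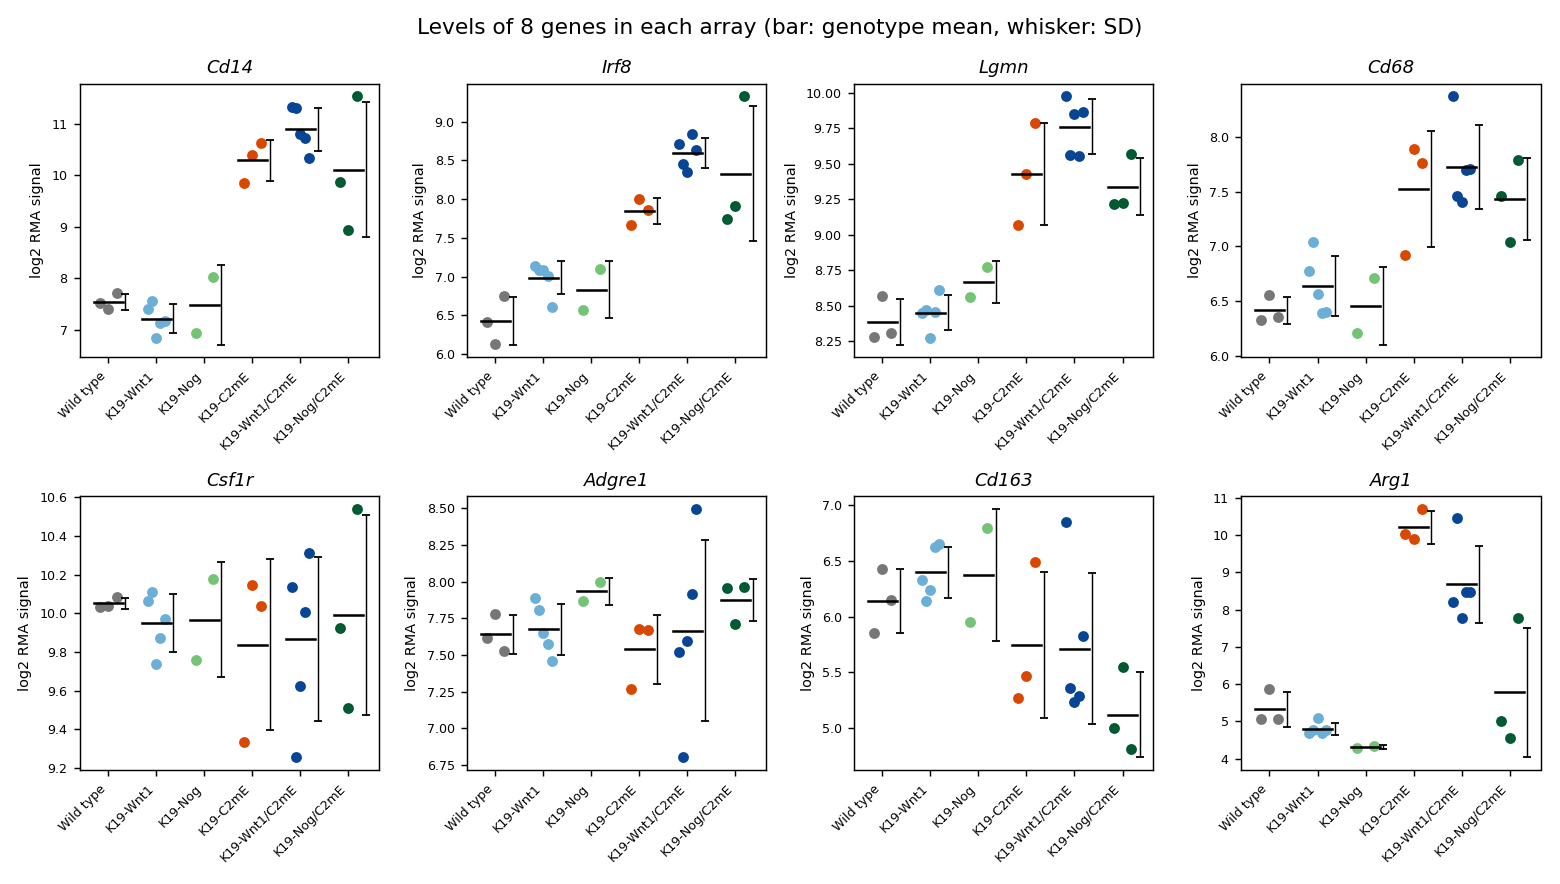
Log2 RMA signal of 8 genes in each array, by genotype. Points are arrays, horizontal bars are genotype means and whiskers are 1 SD (n = 3, 5, 2, 3, 5 and 3 from left to right). Cd14, Irf8 and Lgmn do not overlap between the arrays with and without C2mE, Csf1r and Adgre1 spread around the wild-type level, Cd163 is lowest in K19-Nog/C2mE, and Arg1 is high in K19-C2mE and K19-Wnt1/C2mE but in only 1 K19-Nog/C2mE array.

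Of the 6 Fc receptors, Trem receptors and adaptors, 4 were higher with C2mE and none was lower. Fcer1g, the signaling chain shared by activating Fc receptors, ranged from 7.27 to 7.83 (median 7.47) without C2mE and from 7.58 to 9.16 (median 8.26) with it. It changed by 0.71 ± 0.18 (adjusted p = 0.00196). Fcgr1, the high-affinity receptor for IgG, was higher by 0.72, Tyrobp, the DAP12 adaptor, by 0.63, and Fcgr3, a low-affinity IgG receptor, by 0.61, with adjusted p between 0.00858 and 0.0173. None of these genes passed in K19-C2mE alone, where the differences were 0.46 to 0.61, while Fcer1g, Fcgr1 and Fcgr3 passed in K19-Wnt1/C2mE and Fcer1g in K19-Nog/C2mE. Single arrays decided most of these calls. Fcer1g in K19-Nog/C2mE was 0.53 in place of 0.92 without array 3 (adjusted p = 0.197) and lost its call without any 1 wild-type array. In K19-Wnt1/C2mE the call of Fcgr1 was lost without array 1, 4 or 5 or any 1 wild-type array (adjusted p up to 0.154), and that of Fcgr3 without array 1 or without wild-type array 1 or 2 (up to 0.0635). The value of Fcgr1 depends on its probe set, since the other one differed by 0.01. That other probe set had the higher mean log2 signal (5.92 against 5.81). The one used ranked first only by the linear mean over all arrays, with group means of 5.33 in wild type and 6.30 in K19-Nog/C2mE. The call of Fcgr1 therefore rests on this choice. Trem1, which amplifies responses of neutrophils and monocytes, and Trem2, a lipid receptor of macrophages, did not pass, with differences of 0.27 and 0.10. Trem1 lay between 4.92 and 5.42 in 20 arrays and at 7.001 in K19-Wnt1/C2mE array 1. Without that array Trem1 passed (0.15, adjusted p = 0.0272), and its other, dimmer probe set passed over all arrays (0.35, adjusted p = 0.0428 over all probe sets).

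The integrin chain Itgax (CD11c), carried by dendritic cells and many macrophages, was 6.14, 6.32 and 6.14 in wild type and 7.20, 6.55 and 7.97 in K19-Nog/C2mE. All of the latter were above the former, and the difference was 1.04 ± 0.26 (adjusted p = 0.00516). Averaged over the backgrounds Itgax was higher by 0.42 (adjusted p = 0.0239). Without K19-Nog/C2mE array 3 these values were 0.67 (adjusted p = 0.041) and 0.29 (adjusted p = 0.0524), and the averaged call was also lost without K19-C2mE array 3. Itgam (CD11b), found on both neutrophils and macrophages, ranged from 5.05 to 5.60 without C2mE and from 4.87 to 6.21 with it. Its difference of 0.17 did not pass (adjusted p = 0.328).

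Lysosomal and effector genes were higher in 5 of 8 cases and lower in none. Lgmn, the lysosomal protease legumain, was 8.28, 8.57 and 8.31 in wild type. It was 9.07, 9.43 and 9.79 in K19-C2mE, 9.98, 9.56, 9.85, 9.55 and 9.86 in K19-Wnt1/C2mE, with 9.22, 9.23 and 9.57 in K19-Nog/C2mE. The arrays without C2mE reached at most 8.77, below all 11 arrays with it. The change of 1.01 ± 0.09, or 2.01-fold, had an adjusted p of 1.11e-08, and the differences from wild type were 1.04, 1.37 and 0.95 in the 3 models. Ctss, the cathepsin that prepares MHC class II for antigen loading, ranged from 9.23 to 10.04 without C2mE and from 9.64 to 11.90 with it. It changed by 0.86 ± 0.21 (adjusted p = 0.00166) and passed singly in K19-Nog/C2mE (1.38). Without array 3 of that model its difference there was 0.82 (adjusted p = 0.0527), while K19-C2mE (0.84, adjusted p = 0.0248) and K19-Wnt1/C2mE (0.74, adjusted p = 0.019) passed in the same fit. Mpeg1, a pore-forming protein of phagosomes, was higher by 0.52 (adjusted p = 0.0286), and by 0.36 (adjusted p = 0.0598) without K19-Nog/C2mE array 3. The call was also lost without K19-C2mE array 2 or 3 or wild-type array 2. Lyz2, the lysozyme of myeloid cells, differed by 0.47 (adjusted p = 0.076), Ncf4, a subunit of the phagocyte oxidase, by 0.34 (adjusted p = 0.0512), and Aif1, which encodes the cytoskeletal protein Iba1, by 0.32 (adjusted p = 0.162). Each of these 3 passed without K19-Nog/C2mE array 2 (0.64, 0.38 and 0.44).

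Arg1, the arginase that converts arginine to ornithine and is used as a marker of alternatively activated macrophages, differed most between the models. It measured 5.06, 5.87 and 5.06 in wild type, 4.69 to 5.09 in the 5 K19-Wnt1 arrays, and 4.284 and 4.349 in K19-Nog. It measured 10.02, 9.89 and 10.71 in K19-C2mE, 8.21, 10.45, 7.77, 8.48 and 8.48 in K19-Wnt1/C2mE, with 4.9999, 4.57 and 7.77 in K19-Nog/C2mE. Arrays 1 and 2 of K19-Nog/C2mE were thus below every wild-type array, and array 3 was above all of them. The difference from wild type was 29.3-fold in K19-C2mE (adjusted p = 9.17e-06). In the Wnt1/C2mE mice it was 10.2-fold (adjusted p = 8.88e-05), and K19-Nog/C2mE gave 1.36-fold (adjusted p = 0.631). The averaged change was 3.40 ± 0.35 (adjusted p = 1.2e-07).

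Squamous markers moved with Arg1 in part. The median log2 signal of the squamous list was 11.01, 10.09 and 12.32 in K19-C2mE, 5.64, 10.28, 7.79, 7.58 and 7.72 in K19-Wnt1/C2mE, with 5.03, 5.56 and 5.03 in K19-Nog/C2mE. In wild type it was 4.95, 6.67 and 5.06, and array 2, the highest of these, was the highest for Arg1 too. K19-Wnt1/C2mE array 2 had the highest value of its genotype in both. However, K19-Wnt1/C2mE array 1 and K19-Nog/C2mE array 3 had Arg1 values of 8.21 and 7.77 with squamous medians of 5.64 and 5.03. With this median as a covariate, an alternative added after seeing the data, Arg1 changed by 2.17 on average (adjusted p = 0.00811) and its difference in K19-C2mE was 2.47 (adjusted p = 0.182). In contrast, Cd14, Irf8 and Lgmn had averaged changes of 3.07, 1.76 and 1.05 in that fit. The squamous median of K19-C2mE did not overlap with that of wild type or K19-Nog/C2mE. A fit with this covariate therefore cannot tell it apart from the K19-C2mE genotype.

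Gpnmb, a glycoprotein of lysosomes and melanosomes that lipid-laden macrophages also express, also differed between the models. It measured 5.64, 5.71 and 5.64 in wild type, 6.58, 7.05 and 7.71 in K19-C2mE, 5.25, 6.27, 5.54, 5.44 and 5.80 in K19-Wnt1/C2mE, with 6.82, 6.03 and 5.44 in K19-Nog/C2mE. Only the K19-C2mE arrays were all above wild type. Their difference was 1.45 ± 0.31, a 2.73-fold level (adjusted p = 0.00165), while K19-Wnt1/C2mE was 1.003-fold lower than wild type (adjusted p = 0.991). The averaged change of 0.71 ± 0.18 (adjusted p = 0.00224) was 0.09 (adjusted p = 0.841) with the squamous median as a covariate. Since that fit cannot tell the squamous median apart from the K19-C2mE genotype, no conclusion is drawn from this value. K19-Nog/C2mE array 3, the highest array for most of the 35 genes, was the lowest of its genotype for Gpnmb and for Cd163.

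All 5 leukocyte membrane genes, namely Cd86 and the more widely expressed Ptprc, Laptm5, Cd53 and Cd52, were higher with C2mE in the averaged comparison. Cd53, a tetraspanin, was 6.67, 6.87 and 6.82 in wild type. It was 7.17, 8.29 and 8.68 in K19-C2mE, 9.21, 8.23, 8.56, 8.15 and 8.49 in K19-Wnt1/C2mE, with 7.79, 7.09 and 9.02 in K19-Nog/C2mE. All 11 C2mE arrays exceeded the 3 wild-type arrays, and the averaged change was 1.29 ± 0.22, or 2.44-fold (adjusted p = 7.31e-05). Laptm5, a lysosomal protein that limits antigen receptor signaling, ranged from 7.29 to 7.96 without C2mE and from 7.68 to 9.19 with it. Its change was 0.91 ± 0.16 (adjusted p = 7.69e-05), but its 4 other probe sets gave 0.47, 0.17, 0.06 and -0.05. The one at 0.47 passed (adjusted p = 0.0049 over all probe sets), but in no single model. The one at -0.05 was lower in K19-Wnt1/C2mE than in wild type (-0.33, adjusted p = 0.00963). Both the size and the calls in single models thus depend on the probe set, and the one used can hybridise to other transcripts. Ptprc (CD45), the phosphatase carried by all leukocytes, rose by 0.77 ± 0.19 (adjusted p = 0.00221), Cd52, a glycoprotein of lymphocytes and monocytes, by 0.74, and Cd86, the costimulatory ligand, by 0.31. Ptprc and Cd52 passed singly in K19-Nog/C2mE (1.26 and 1.34), and Cd86 in none of the models. Without K19-Nog/C2mE array 3 both lost that call (0.85, adjusted p = 0.0603, and 0.80, adjusted p = 0.118), and Ptprc passed in K19-C2mE (0.83, adjusted p = 0.0369) and K19-Wnt1/C2mE (0.68, adjusted p = 0.0398). Without K19-Nog/C2mE array 2, Cd86 passed there (0.51, adjusted p = 0.0244).

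Of the 4 neutrophil genes and cytokine receptors of the list, 2 were higher and 1 was lower. Csf2rb, the shared receptor chain for GM-CSF, IL-3 and IL-5, which macrophages and eosinophils carry too, was 5.80, 5.71 and 5.90 in wild type. It was 6.23, 6.77 and 7.08 in K19-C2mE, 7.37, 6.32, 6.43, 6.68 and 6.51 in K19-Wnt1/C2mE, with 6.68, 6.32 and 8.27 in K19-Nog/C2mE. Arrays without C2mE ended at 6.17 and those with it began at 6.23, so the groups were separate by a narrow margin. The change was 0.92 ± 0.20 (adjusted p = 0.000516), and a further probe set gave 1.05. Csf3r, the G-CSF receptor, was higher by 0.44 (adjusted p = 0.0249), with its highest values in K19-Wnt1/C2mE array 1 (6.84), K19-Nog/C2mE array 3 (6.77) and K19-C2mE array 3 (6.20), while the other 8 C2mE arrays lay between 5.60 and 6.04. The call was lost without either of the last 2 arrays (adjusted p = 0.0563 and 0.0576). Cxcr2, the receptor for neutrophil chemokines, differed by 0.03 with a 95% interval of -0.18 to 0.24. Its signal was dim in all arrays (4.73 to 5.50), below the median of all probe sets (6.09), which limits what this interval can show. Mpo, the granule enzyme made by neutrophil precursors, was dim in all arrays (4.31 to 5.08) and lower by 0.18 (log2 change -0.18, adjusted p = 0.0362), a call that was lost without any 1 of 6 arrays.

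Other neutrophil genes, kept as a separate list of 13 measured genes, gave 6 higher and none lower. Ltf (lactoferrin) changed by 5.64, S100a9 by 3.02, S100a8 by 2.92 and Lcn2 by 2.52, all 4 of which epithelial cells can express as well. The summed signal of this list was 646 to 756 in wild type, 15609 to 22362 in K19-C2mE, 7955 to 16392 in K19-Wnt1/C2mE, and 696 to 15996 in K19-Nog/C2mE. Granule proteases and peptides that are closer to neutrophil precursors (Elane, Prtn3, Camp, Ngp) had changes between -0.18 and -0.05 and did not pass. Ltf, S100a9 and S100a8 also passed in K19-C2mE against wild type (7.69, 3.58 and 3.13), where Cxcr2 (-0.07) and Csf3r (0.19) did not. The part of epithelial cells in these values was not tested.

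A stricter reading used the arrays themselves. Cd14, Lgmn, Irf8 and Csf2rb were higher in all 11 C2mE arrays than in all 10 others, which is 4 of the 35 genes (11.4%), and no gene was lower without overlap. Of all genes, 7.31% were higher and 7.06% lower in this way. In comparisons with wild type, 14 genes were higher and 1 lower without overlap in K19-C2mE (24.2% and 24.8% of all genes), and 11 and 0 in K19-Wnt1/C2mE (20.4% and 21.8%). K19-Nog/C2mE had 18 and 2 (23.4% and 25.8%). The direction was one-sided for these genes, since few of the 35 were lower, whereas the whole array was balanced.

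Differences between the tumor models were found for 4 of the 35 genes by the F test among the 3 C2mE genotypes, beside 14.3% of all genes. These were Arg1 (adjusted p = 0.000323), Gpnmb (0.00457), Itgax (0.0319) and Clec7a (0.0344). Arg1 was lower in K19-Nog/C2mE than in K19-C2mE by a log2 difference of -4.43 (adjusted p = 0.000605) and higher in K19-Wnt1/C2mE than in K19-Nog/C2mE by 2.90 (adjusted p = 0.00214). Gpnmb was lower in K19-Wnt1/C2mE than in K19-C2mE, with -1.45 (adjusted p = 0.00326). Clec7a and Itgax were lower in K19-Wnt1/C2mE than in K19-Nog/C2mE, by -1.13 (adjusted p = 0.0157) and -0.93 (adjusted p = 0.014). Of the 35 genes, 1 was called either way for K19-Wnt1/C2mE against K19-C2mE (7.91% of all genes), 1 for K19-Nog/C2mE against K19-C2mE (2.75%), and 3 for K19-Wnt1/C2mE against K19-Nog/C2mE (12.8%).

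Single arrays bear on these differences. Without K19-Nog/C2mE array 3 the last comparison gave 5 genes in place of 3, among them Cd14, Irf8 and Lgmn, which were higher in K19-Wnt1/C2mE by 1.496, 0.770 and 0.540, while Clec7a (-0.70) and Itgax (-0.56) no longer passed. Clec7a also missed the threshold without K19-Nog/C2mE array 1 (-1.16, adjusted p = 0.0514). Without K19-Nog/C2mE array 2 it also gave 5. The F test gave 2 genes without K19-Wnt1/C2mE array 2 or without K19-Nog/C2mE array 1, and K19-Wnt1/C2mE against K19-C2mE gave 2 without K19-Wnt1/C2mE array 2 and 3 (Gpnmb, Arg1 and Irf8) without K19-Nog/C2mE array 3. K19-Nog/C2mE against K19-C2mE likewise gave 2 without K19-Nog/C2mE array 1. With the squamous median as a covariate none of the 3 pairwise comparisons gave a gene of the list. This median was 10.09 to 12.32 in K19-C2mE and 5.03 to 5.56 in K19-Nog/C2mE, without overlap. The fit therefore cannot tell it apart from genotype, and no conclusion is drawn from the lost calls.

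The 35 genes varied widely among mice of one genotype. Their median SD was 0.39 in K19-C2mE, 0.42 in K19-Wnt1/C2mE and 0.70 in K19-Nog/C2mE, beside 0.12, 0.16 and 0.13 for all genes, whereas in wild type it was 0.11 beside 0.10. Genotypes without C2mE were also above the background, with 0.22 beside 0.13 in K19-Wnt1 and 0.24 beside 0.084 in K19-Nog. K19-Nog/C2mE array 3 had the highest value of its genotype in 32 of the 35 genes and the highest of all 21 arrays in 19. K19-C2mE array 1 had the lowest of its genotype in 32, and K19-Wnt1/C2mE array 2 in 22. The median of the 35 genes relative to wild type was 0.00, 0.68 and 0.79 in K19-C2mE, 1.13, -0.10, 0.28, 0.70 and 0.82 in K19-Wnt1/C2mE, with 0.67, 0.23 and 1.60 in K19-Nog/C2mE. The medians of 0.00 and -0.10 stand for genes that went both ways. In K19-C2mE array 1, 12 genes were more than 0.25 above and 9 more than 0.25 below the wild-type mean, and in K19-Wnt1/C2mE array 2 these were 11 and 11. Cd14 measured 9.84 and 11.30 in these arrays, and Arg1 10.02 and 10.45.

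**Figure D4:**
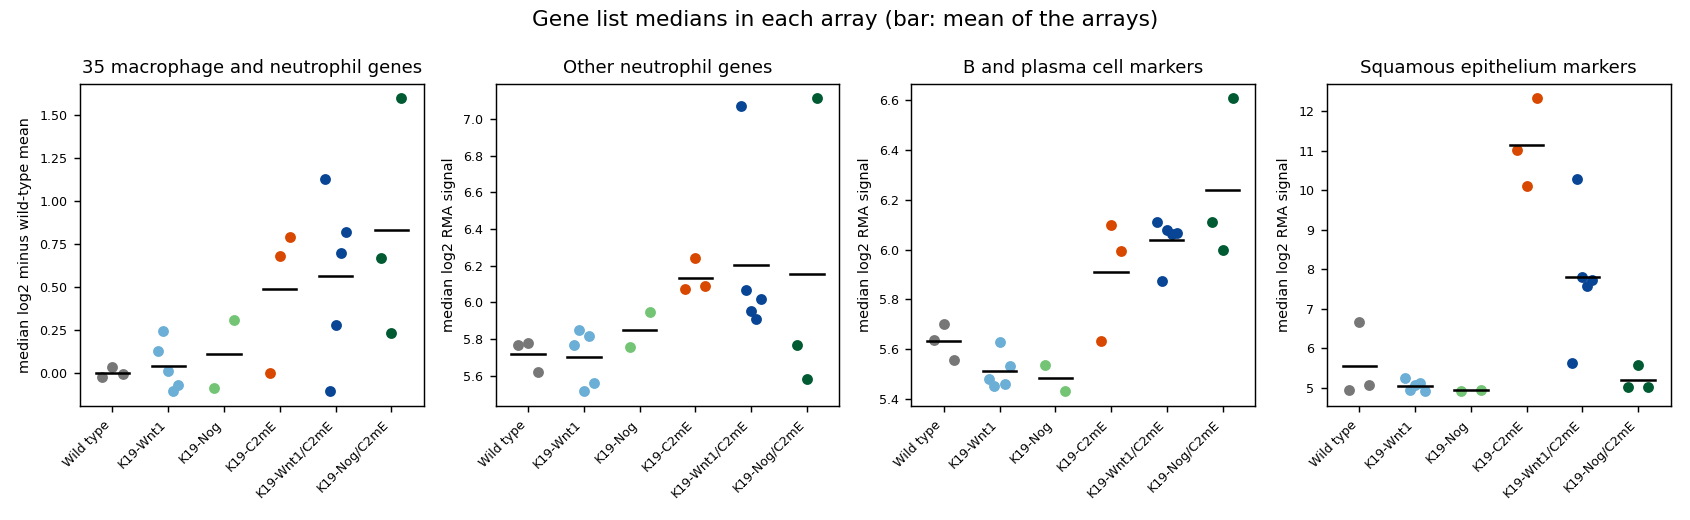
Medians of 4 gene lists in each array, by genotype. Points are arrays and bars are the means of the arrays of a genotype. The y axis of the first panel is the median of the 35 genes after subtraction of the wild-type mean, and the others show median log2 signal. K19-Nog/C2mE array 3 (1.60) and K19-Wnt1/C2mE array 1 (1.13) are highest for the 35 genes and also for other neutrophil genes (7.11 and 7.07). Squamous markers are highest in K19-C2mE arrays 3 (12.32) and 1 (11.01), followed by K19-Wnt1/C2mE array 2 (10.28) and K19-C2mE array 2 (10.09).

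Other leukocyte markers were followed in the same arrays, where 27.4% of all genes were higher with C2mE and 26.3% were lower. Counts from lists this short, such as that of the T cell markers, can lie near those shares. K19-Nog/C2mE array 3 was the highest array for B and plasma cell markers (median log2 signal 6.61) and for T cell markers (6.98). With C2mE, 5 of 9 B and plasma cell markers were higher and 1 was lower, led by Jchain (3.81), Pou2af1 (3.46) and Mzb1 (1.84), and their summed signal was 536 to 888 in wild type and 1932 to 9356 in the C2mE arrays. Of 9 T cell markers 3 were higher, with the largest change in Cd3g (0.43), and the summed signal was 643 to 664 in wild type and 621 to 967 with C2mE. Mast cell markers gave 6 higher and 3 lower of 10, eosinophil markers 2 higher of 5, and dendritic cell markers 1 higher and 3 lower of 8. The summed signal of the dendritic list was 3419 to 3951 in wild type and 3787 to 16418 in K19-Nog/C2mE. Its highest array was K19-Nog/C2mE array 3, where the MHC class II genes Cd74 (12.70) and H2-Ab1 (11.71) were above all other arrays (at most 11.45 and 10.04), while Flt3 (7.24), Zbtb46 (6.44) and Xcr1 (4.21) lay within the range of the others. The 2 red blood cell markers summed to 103 to 120.2 in wild type and 165 to 839.97 in K19-Wnt1/C2mE, with Alas2 highest in array 1 (9.69). The defining B cell marker Ms4a1 differed by 0.17 and Cd3e by -0.10, and neither passed. The part of these cells in the levels of Ptprc, Laptm5, Cd53, Cd52, Irf8 and Itgax was not tested.

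None of the 35 genes passed the test with Wnt1 or Nog alone. For K19-Wnt1 against wild type, 1 gene had an unadjusted p below 0.05, which was Irf8 (0.55, adjusted p = 0.792), and 0.0110% of all genes passed. For K19-Nog, with 2 arrays, no gene of the list had an unadjusted p below 0.05, and 3.11% of all genes passed. The changes lay between -0.53 and 0.55 for K19-Wnt1 and between -1.02 and 0.45 for K19-Nog, where Arg1 had the lowest value. Such intervals are wide: that of Arg1 in K19-Nog ran from -2.49 to 0.46.

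Adding C2mE to each background gave counts of the same kind. K19-Wnt1/C2mE against K19-Wnt1 gave 13 genes higher and 1 lower (22.9% and 21.8% of all genes), and K19-Nog/C2mE against K19-Nog gave 10 and 1 (14.0% and 13.7%). The latter count varied with single arrays. It was 3 without K19-Nog array 1, 7 without K19-Nog array 2, 5 without K19-Nog/C2mE array 3 and 19 without K19-Nog/C2mE array 2. Whether the effect of C2mE differed by background was tested by interaction terms, and none of the 35 genes passed for Wnt1 (1.51% of all genes, 1 gene of the list at an unadjusted p below 0.05) or for Nog (1.24%, 2 genes). Without K19-Wnt1/C2mE array 2 the Wnt1 interaction gave 1 gene, and without K19-Nog/C2mE array 3 the Nog interaction gave 1.

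Ligands and partners of the 35 genes were read from lists that do not overlap with them. Their counts stand beside 27.4% of all genes higher and 26.3% lower with C2mE. Of 19 growth factors and chemoattractants of myeloid cells, 12 were higher with C2mE and 1 was lower. Cxcl5, a ligand of Cxcr2, had the largest change (4.61, adjusted p = 1.55e-07). It was 3.995, 4.41 and 4.22 in wild type, 9.29, 9.39 and 10.39 in K19-C2mE, 9.59, 10.16, 7.997, 9.86 and 8.63 in K19-Wnt1/C2mE, with 7.59, 5.50 and 11.10 in K19-Nog/C2mE. Every C2mE array was therefore above wild type for the ligand, while its receptor Cxcr2, which was dim in all arrays, did not pass. Saa3, an acute phase protein, rose by 1.72, Cxcl2, a further Cxcr2 ligand, by 1.64, and Ccl20, the ligand of Ccr6, by 1.56. The 1 gene that was lower was Csf1 (-0.58, adjusted p = 7.89e-05), the growth factor of Csf1r.

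Among 17 other receptors of myeloid cells 7 were higher and 2 were lower. Tlr2, a receptor for bacterial lipoproteins that works with Cd14, rose by 2.40, Ccr1 by 0.83, Tlr4, the lipopolysaccharide receptor, by 0.73, and Fcgr4 by 0.68. The 2 lower genes were Axl (-0.42), a receptor for dying cells, and Siglec1 (-0.37), a sialic acid receptor of resident macrophages. Of 17 other macrophage effectors 7 were higher and 1 was lower. Il1rn, the interleukin 1 receptor antagonist, rose by 2.69, Ctsl, a cathepsin, by 1.55 and Chil3, a secreted chitinase-like protein, by 1.49, and Retnla, which like Arg1 marks alternative activation in the mouse, was lower (-1.32). The complement genes C1qa, C1qb and C1qc, which tissue macrophages make, differed by 0.31 to 0.43 and did not pass.

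Of 12 measured subunits of the phagocyte oxidase and signaling partners of integrins and Fc receptors, 8 were higher and none was lower. Cyba, the membrane subunit p22phox that several oxidases share, rose by 2.32 (adjusted p = 2.38e-12), Rac2 by 1.04, Coro1a by 0.96 and Plek by 0.93. Of 12 other myeloid transcription factors 5 were higher and 2 were lower. Mitf changed by -2.14, and Cebpb, Cebpa and Runx1 rose by 1.202, 1.09 and 1.09. Several of these genes are also expressed by epithelial cells, and their part in the values was not tested.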

How the data were processed

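The authors extracted RNA from glandular stomach, hybridised 1 array per mouse, summarised the 21 arrays by RMA (Affymetrix Power Tools, run from Rosetta Resolver), and deposited a linear intensity for each of 45037 probe sets. They also deposited log10 ratio values to the wild-type mean, limited to 2 in either direction, which served as an alternative. RMA estimates background and shrinks dim probe sets, so changes of dim genes can be understated. Whether this holds for Mpo, which was dim in all arrays, was not tested. The number of arrays limits the precision.

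Here log2 of the intensity was taken without further normalisation. Probe sets were named from the platform annotation (34945 with 1 gene, 932 with several, 9160 with none), and the probe set with the highest mean signal stands for a gene, for 18193 genes; 12 of the 35 genes have several. One linear model over the 21 arrays with a coefficient per genotype was fitted in limma 3.58.1 (R 4.3.3) with moderated variances, 13 contrasts and an F test among the 3 C2mE genotypes, and p-values were adjusted by Benjamini-Hochberg over all genes. Groups came from the sample labels. Each mouse gave 1 array, so the spread is between animals. The code was tested on simulated data. Promoters came from RefSeq (GRCm38.p6), and figures were drawn with matplotlib. All 35 genes are named; full statistics are given for the 15 with the lowest adjusted p in the averaged comparison, and up to 4 called genes with the largest change from each other list, besides a few added after their values were seen. The 35 genes and the lists were chosen with earlier results of these data known. Alternatives included other probe set rules, a filter on dim probe sets, array centring, quantile normalisation, fits of only the genotypes compared, robust variances, a replicate block and leaving out each array. Covariates for squamous markers and Y-linked level, and leaving out the arrays with Y-linked signal, were added after seeing the data.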

Additional observations from a re-analysis of the deposited data

Results flagged for a closer look

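Among 70 groups of 4 or more arrays (the 35 genes in K19-Wnt1 and in K19-Wnt1/C2mE), 7 held 1 array far from the others of its genotype, and chance gives about 1 in 20. In K19-Wnt1 these were Mrc1 in array 1 (7.75), Irf8 in array 6 (6.61), Arg1 in array 4 (5.09) and Trem2 in array 2 (7.05). In K19-Wnt1/C2mE they were Cd86 in array 2 (5.68), Arg1 in array 2 (10.5) and Trem1 in array 1 (7.001). Arg1 in K19-Wnt1/C2mE array 2 was high where most of the 35 genes were lowest for the genotype, and the squamous median of that array (10.28) was the highest of its genotype.

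For 4 genes the difference from wild type was unlike in 2 tumor models by the test of the difference itself. Arg1 differed by -4.43 between K19-Nog/C2mE and K19-C2mE and by 2.90 for K19-Wnt1/C2mE minus K19-Nog/C2mE. Gpnmb differed by -1.45 between K19-Wnt1/C2mE and K19-C2mE. Clec7a and Itgax differed by -1.13 and -0.93 for K19-Wnt1/C2mE minus K19-Nog/C2mE. No difference of these passed with the squamous median as a covariate. That median did not overlap between K19-C2mE and K19-Nog/C2mE, so the fit cannot tell it apart from genotype. The part of squamous tissue in these differences was not tested further.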

How the results depend on the processing

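Among alternative counts of called genes, 144 were within 1.5 times the reported count and 31 were not, and among alternative averaged changes of the 15 named genes 167 kept their call and 11 lost it (Cd163 and Gpnmb with the squamous covariate, and 9 genes without the arrays with Y-linked signal). No direction was reversed. Centring, quantile normalisation, the ratio table, the mean of probe sets, robust variances and adjustment over all probe sets moved no count by more than 1.5 times. The cause of the changes below was not tested, apart from fewer arrays where arrays were left out.

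Fits of only the genotypes compared gave 13 genes for K19-C2mE and 9 for K19-Nog/C2mE against wild type, 1 for K19-Nog against wild type, 3 for K19-Nog/C2mE against K19-Nog, 2 for K19-Wnt1/C2mE against K19-C2mE, 0 for K19-Nog/C2mE against K19-C2mE, 0 for K19-Wnt1/C2mE against K19-Nog/C2mE, 1 for the Wnt1 interaction and 1 for the F test. The methods' t-test gave 13 genes in K19-C2mE and 7 in K19-Nog/C2mE unadjusted, and 5 and 1 after Benjamini-Hochberg. At an unadjusted p below 0.001 the F test gave 2. Without dim probe sets K19-Wnt1/C2mE against K19-C2mE gave 0. With the squamous covariate, which cannot be told apart from genotype in K19-C2mE, the 3 pairwise comparisons gave 0, 0 and 0 and the F test 1. Without the arrays with Y-linked signal the counts were 0 for K19-C2mE, 3 for K19-Wnt1/C2mE and 1 for K19-Nog/C2mE against wild type, 6 averaged, 5 and 3 against K19-Wnt1 and K19-Nog, 0 for each pairwise comparison and 0 for the F test, where wild type, K19-Wnt1 and K19-C2mE each have 1 array.

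For each comparison, each array of the genotypes compared was left out in turn. This gave 7 to 11 genes in K19-C2mE, 8 to 17 in K19-Wnt1/C2mE and 8 to 21 in K19-Nog/C2mE against wild type. The counts were 0 to 0 for Wnt1 or Nog alone, 18 to 27 averaged, 10 to 19 against K19-Wnt1 and 3 to 19 against K19-Nog. They were 1 to 2 and 1 to 2 against K19-C2mE, and 2 to 5 for K19-Wnt1/C2mE against K19-Nog/C2mE. The F test gave 2 to 5, and both interactions gave 0 to 1. Without K19-Nog/C2mE array 3, which is outside that comparison, K19-Wnt1/C2mE against K19-C2mE gave 3. The averaged changes of all 15 named genes kept their calls when any 1 array was left out. Same-numbered arrays of different genotypes did not deviate together: over 38 pairs r ran from -0.35 to 0.18, 9 pairs were over 0.1, and an array correlated best with its own number in 21 of 76 cases. With the number as a replicate block 8 genes were called for K19-Wnt1/C2mE against K19-Wnt1 and 5 for K19-Nog/C2mE against K19-Nog, 18 averaged, and the other counts stayed within 1.5 times. Of the 35 genes 24 were above the median signal of all probe sets, and changes of the other 11 are limited by dim signal. These 11 are Itgam, Cd163, Fcgr1, Aif1, Cd86, Mpo, Csf3r, Cxcr2, Trem1, Gpnmb and Ncf4.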
